A study of Mus musculus with 8 samples.

Results

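The genes described here are the 7 protein-coding genes of mitochondrial DNA whose products belong to respiratory complex I, and the data are the ALKBH5 eCLIP peaks that touch them. Members were chosen by measured peak positions: a peak counted if it overlapped, by at least 1 bp, the interval of mt-Nd1, mt-Nd2, mt-Nd3, mt-Nd4l, mt-Nd4, mt-Nd5 or mt-Nd6 on chromosome MT (build GRCm39). Of 72953 peaks in 4 lists, 27 lay on chromosome MT and 17 of these touched a complex I gene. ALKBH5 removes the N6-methyladenosine mark from RNA, and in eCLIP ultraviolet light fixes a protein to the RNA it touches before that protein is precipitated and the attached RNA sequenced. The tested cells were E14TG2a mouse embryonic stem cells of genotype Alkbh5 del-cIDR, which carry endogenous ALKBH5 without its C-terminal intrinsically disordered region. Their reference was E14TG2a cells of genotype WT with full-length (FL) ALKBH5. Both were kept with serum, LIF, PD0325901 and CHIR99021, and RNA came from nuclei isolated after crosslinking. Each genotype had 2 immunoprecipitates with a peak list each, and the inputs were not analysed here.

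Complex I, the NADH:ubiquinone oxidoreductase, takes electrons from NADH and pumps protons across the inner mitochondrial membrane. Most of its subunits come from nuclear genes, while the ND proteins form the core of its membrane arm. Mitochondrial genes are transcribed as long precursors from both DNA strands, and mRNAs are released where the tRNAs that lie between them are cut out. In mammals mt-Nd4l and mt-Nd4 stay together on a bicistronic mRNA, and mt-Nd6 is the only mRNA encoded on the light strand.

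The lists held 17584 and 18841 peaks for del-cIDR replicates 1 and 2, and 19892 and 16636 for FL replicates 1 and 2. The number of reads behind them is unknown, no peak carried a strand, and the labels do not say whether replicates were separate cultures or whether the edited line is 1 clone. The deposited files give no level of RNA, so more RNA and more binding per RNA could not be told apart, and stem cell markers could not be checked. How mitochondrial RNA came into libraries made from isolated nuclei was not tested. Whether its peaks mark contact with ALKBH5 was not tested either. Every fold enrichment below is the authors' own value at the summit of a peak, its position of highest signal. It is a ratio over the background used by the peak caller, and the summit can lie outside the gene named. It describes a peak within its list, as does its rank.

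The peaks of the complex I genes fell into a 3' block that was covered in every library and a 5' part where genotypes and replicates differed. The genes mt-Nd4l, mt-Nd4, mt-Nd5 and mt-Nd6 held a peak in all 4 libraries. A peak touched mt-Nd2 in both del-cIDR libraries and in neither FL library, and mt-Nd1 in FL replicate 2 alone. No library had a peak in mt-Nd3. Of the 6340 bases of the 7 genes, overlaps counted once, peaks covered 3934 and 3870 in the del-cIDR replicates, against 3730 and 3814 in the FL replicates. The means were 3902 ± 45.3 bases for del-cIDR and 3772 ± 59.4 bases for FL (SD, n = 2 each). Both del-cIDR values lay above both FL values. The difference of 130 bases became -0.5 when at least 50% of a peak had to lie in a gene, and -701.5 when its summit had to. It became 3459.5 bases when peaks under 2-fold enrichment were dropped, which removed the FL peaks of mt-Nd4l, mt-Nd4 and mt-Nd5. The number of peaks was 4 and 5 for del-cIDR and 4 and 4 for FL. These positions chose the members, so they are described and not tested.

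**Figure D1:**
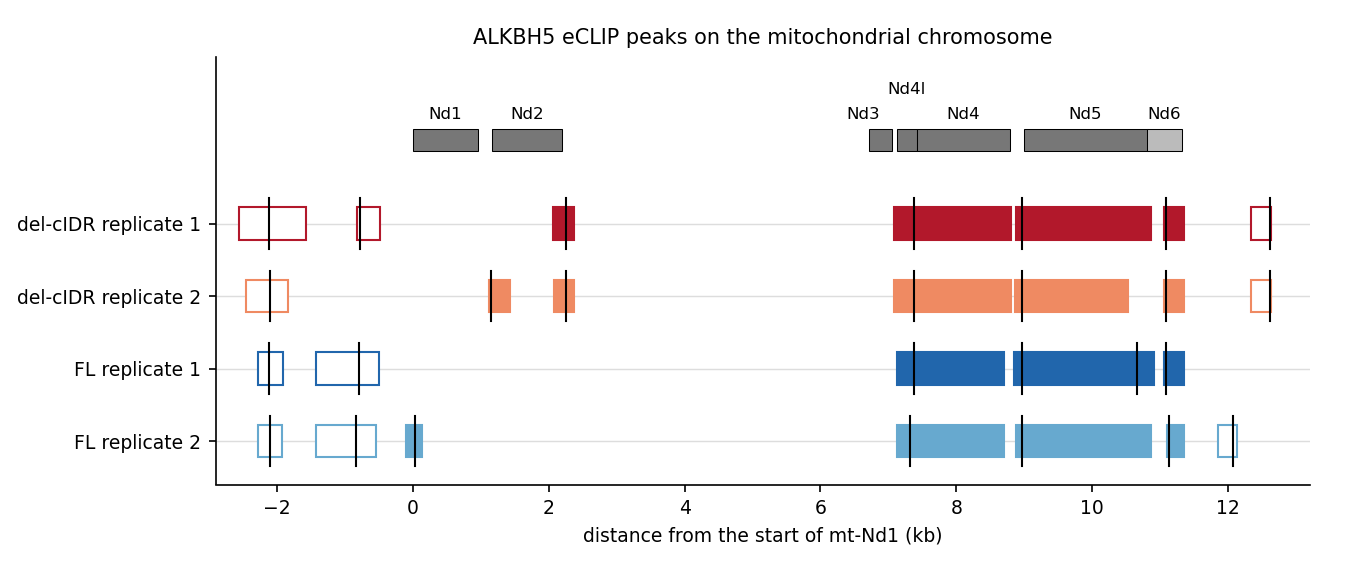
Peaks on chromosome MT in each library (rows) by distance from the start of mt-Nd1 in kb, with genes as grey boxes (mt-Nd6, on the other strand, in light grey). Filled bars touch a complex I gene, open bars do not, and black lines mark summits. All 4 rows carry peaks over mt-Nd4l to mt-Nd6, only the del-cIDR rows have a peak at mt-Nd2, and a stretch of 4713 bp around mt-Nd3 has none.

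The ND1 subunit lies where the membrane arm of the complex meets the arm that binds NADH. Its gene (NCBI gene 17716, chromosome MT from 2751 to 3707) was touched by 1 peak, from 2648 to 2890 in FL replicate 2. That peak had 3.70-fold enrichment and ranked 2 of 16636 by −log10 q. It covered 140 of the 957 bases of mt-Nd1, and its other 103 bases lay before the gene. The stretch there holds the ribosomal RNA genes and TrnL1. With a width of 243 bp the peak was as narrow as any of its list. Neither del-cIDR library nor FL replicate 1 had a peak there, so the FL libraries disagreed on this gene.

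The ND2 subunit is one of the antiporter-like proton pumps of the membrane arm. Its gene (17717, from 3914 to 4951) had a peak over its 3' end in both del-cIDR replicates, from 4819 to 5124 in replicate 1 and from 4824 to 5125 in replicate 2. The borders of these peaks differed by at most 5 bases between replicates, and the enrichment was 2.16-fold and 2.03-fold. They ranked 90 of 17584 and 137 of 18841. At 306 and 302 bp wide, they were close to the narrowest peaks of their lists (300 and 301 bp). Only 133 and 128 bases of the peaks lay in mt-Nd2, and the remaining 173 and 174 bases lay beyond its end, in a stretch that opens with the tRNA genes TrnW, TrnA and TrnN. A further peak at the 5' end of mt-Nd2, from 3877 to 4178, was listed in del-cIDR replicate 2 only, with 1.92-fold enrichment and rank 91. Peaks covered 12.8% and 37.9% of mt-Nd2 in the del-cIDR replicates and none of it in the FL replicates.

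The small ND3 subunit sits beside ND1 in the membrane arm. Its gene (17718, from 9459 to 9806) was inside a stretch from 5126 to 9838 that was free of peaks in all 4 libraries. By order in the name table, this stretch also holds the genes of cytochrome oxidase (COX1, COX2, COX3) and of ATP synthase (ATP8, ATP6). The nearest peaks began 32 and 33 bases after the end of mt-Nd3 in the del-cIDR replicates, and 71 and 66 bases after it in FL replicates 1 and 2. On the inner side of the 1 bp limit, the smallest overlaps with a gene were 58 and 68 bases of mt-Nd6, under the ends of mt-Nd5 peaks of del-cIDR replicate 1 and FL replicate 2. The mouse nuclear genome holds near-identical copies of mitochondrial DNA, and the name table lists a pseudogene with the synonym mt-Atp6 on chromosome 1. The labels do not say how reads matching both copies were placed, and the part of such reads in the gap was not tested.

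**Figure D2:**
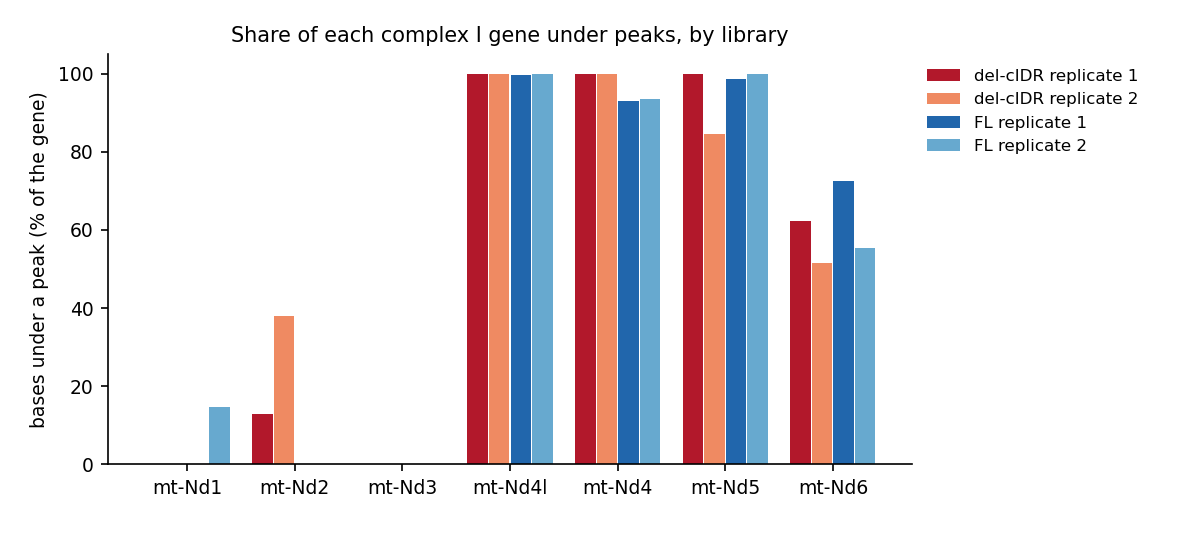
Percent of the bases of each complex I gene under a peak (vertical axis) in each library (bars, del-cIDR in red shades and FL in blue shades). Values for mt-Nd4l were 99.7% or more in every library, those for mt-Nd3 were 0, and mt-Nd6 was covered in part everywhere.

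The bicistronic unit of mt-Nd4l (17720, from 9877 to 10173) and mt-Nd4 (17719, from 10167 to 11544) lay under a single peak in every library. ND4L is a small membrane subunit and ND4 another of the antiporter-like pumps. The peak ran from 9839 to 11556 in del-cIDR replicate 1 and from 9840 to 11556 in del-cIDR replicate 2, against 9878 to 11447 in FL replicate 1 and 9873 to 11453 in FL replicate 2. Its width was 1718 and 1717 bp for del-cIDR and 1570 and 1581 bp for FL. The del-cIDR peaks thus began 38 and 37 bases before mt-Nd4l and ended 12 bases beyond mt-Nd4, while the FL peaks stopped 97 and 91 bases short of the end of mt-Nd4. Replicates differed by no more than 6 bases at either border, and the genotype means by 36 bases at the start and 106 bases at the end. Peaks covered 100% of mt-Nd4 in both del-cIDR libraries and 93.0% and 93.4% of it in the FL libraries. The enrichment was 3.41-fold and 3.16-fold for del-cIDR and 1.76-fold and 1.96-fold for FL. How many other peaks of the lists separate the genotypes in this way was not counted. A chromosome 1 pseudogene, Gm10222, has the same length as mt-Nd4l (297 bp), and whether it shared reads with mt-Nd4l or mt-Nd4 was not tested.

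ND5, the third antiporter-like subunit, lies at the far end of the membrane arm, and its gene (17721, from 11742 to 13565) also carried long peaks in every library. One peak ran from 11623 to 13609 in del-cIDR replicate 1, from 11621 to 13283 in del-cIDR replicate 2 and from 11627 to 13619 in FL replicate 2. FL replicate 1 had a pair of peaks instead, from 11593 to 12136 and from 12163 to 13666. Peaks covered 100% and 84.5% of mt-Nd5 in the del-cIDR replicates and 98.6% and 100% in the FL replicates, so genotypes overlapped. The shorter coverage of del-cIDR replicate 2 came from a peak that ended 282 bases before the end of the gene. Enrichment was 2.80-fold and 3.28-fold for del-cIDR. It was 1.78-fold and 1.86-fold for the pair of FL replicate 1 and 1.59-fold for FL replicate 2. These values were taken at unlike places. The summit of the 1.86-fold peak was at 13416, inside the gene, while the other summits lay just before the gene.

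ND6, a membrane subunit beside ND3 and ND4L, is encoded on the strand opposite the other members, so its mRNA begins at the higher coordinate. Its gene (17722, from 13552 to 14070) had a narrow peak at that end in every library. The peak ran from 13806 to 14106 and from 13804 to 14108 in del-cIDR replicates 1 and 2, and from 13810 to 14108 and from 13852 to 14107 in FL replicates 1 and 2. Its widths of 301, 305, 299 and 256 bp, in that order, were near the narrowest of each list (300, 301, 297 and 243 bp). The upper border agreed within 2 bases over the 4 libraries and lay 36 to 38 bases beyond the gene, on the side of the tRNA gene TrnE. Enrichment was 3.89-fold and 4.57-fold for del-cIDR and 2.85-fold and 3.55-fold for FL. The ends of long mt-Nd5 peaks added up to 115 bases in 3 libraries, and mt-Nd6 was covered to 62.2% and 51.4% in the del-cIDR and 72.4% and 55.3% in the FL replicates. Without strands, RNA of mt-Nd6 and transcripts of the opposite strand could not be told apart.

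Within each list the mt-Nd6 peak ranked above the mt-Nd5 and mt-Nd4l to mt-Nd4 peaks. By −log10 q it ranked 52 and 49 in del-cIDR replicates 1 and 2 and 120 and 32 in FL replicates 1 and 2. The mt-Nd5 peak ranked 201 and 215 in del-cIDR. The better mt-Nd5 peak of FL replicate 1 ranked 1037, and that of FL replicate 2 ranked 1581. The mt-Nd4l to mt-Nd4 peak ranked 213 and 322 in del-cIDR and 1387 and 866 in FL. The last 2 blocks kept their order in 3 libraries and stood the other way round in FL replicate 2.

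Given as a percent of the list, the mt-Nd4l to mt-Nd4 peak ranked at 1.21% and 1.71% in the del-cIDR lists and at 6.97% and 5.21% in the FL lists. For mt-Nd5 the values were 1.14% and 1.14% for del-cIDR, against 5.21% and 9.50% for FL. Genotypes did not overlap at these blocks, while the mt-Nd6 peak stood at 0.296% and 0.260% for del-cIDR and 0.603% and 0.192% for FL, with overlap. Enrichment was set against the whole list as well. A fold lower than that of the mt-Nd4l to mt-Nd4 peak was found for 57.2% and 50.3% of del-cIDR peaks and for 1.59% and 4.62% of FL peaks. For the mt-Nd5 peak these shares were 36.7% and 54.0% in del-cIDR, and 2.69% and 0.577% in FL. For the mt-Nd6 peak they were 66.9% and 75.5% in del-cIDR, and 25.8% and 48.9% in FL, without the overlap seen in its rank. In FL lists the mt-Nd4l to mt-Nd4 and mt-Nd5 peaks thus stood near the low end by fold, while by −log10 q they ranked at 9.50% of the list or better. The lists themselves differed in fold, with medians over all peaks of 3.172 and 3.157 for del-cIDR and 3.803 and 3.598 for FL. How many other peaks of the lists separated the genotypes in fold or rank was not counted. The lack of overlap at these blocks is thus not shown to be particular to these genes.

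**Figure D3:**
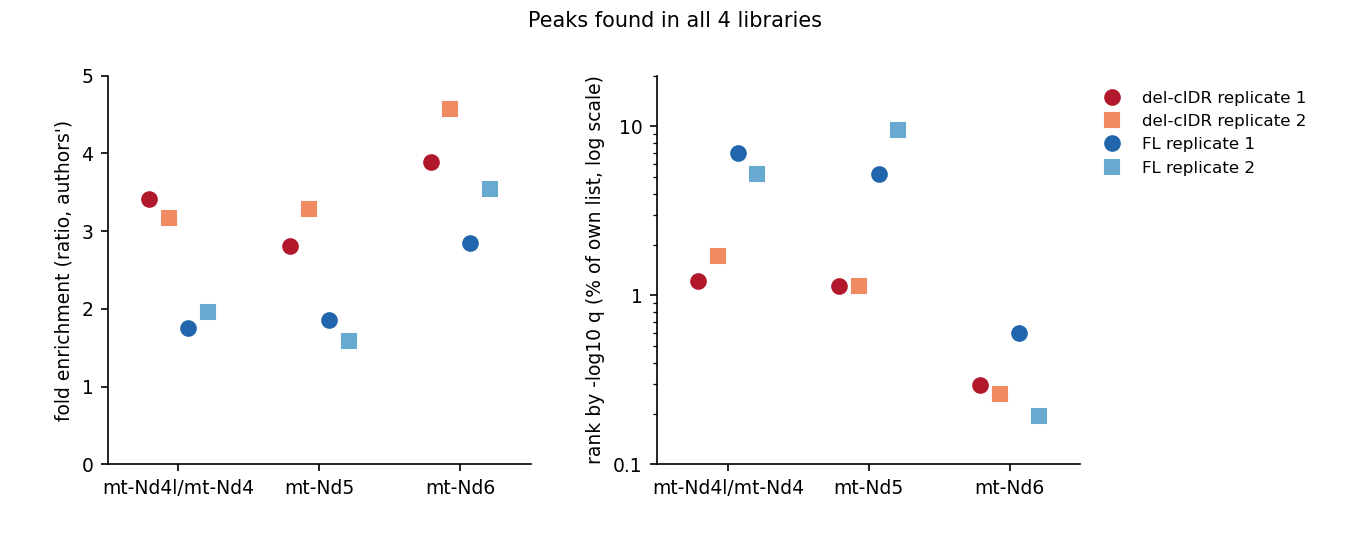
Fold enrichment (left, ratio as deposited) and rank by −log10 q as a percent of the library's own list (right, log scale, lower is better) for the peaks found in all 4 libraries. Points are single libraries, with the better of the 2 mt-Nd5 peaks shown for FL replicate 1. The summit of that peak lay inside mt-Nd5, and those of the other libraries just before it. The del-cIDR points lie above the FL points in fold at all 3 blocks and below them in rank at mt-Nd4l/mt-Nd4 and mt-Nd5. How many other peaks of the lists separate the genotypes in this way was not counted.

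Over all member peaks of a library, the median fold enrichment was 3.11 and 3.16 for del-cIDR and 1.82 and 2.75 for FL. The means were 3.13 ± 0.0394 for del-cIDR and 2.29 ± 0.658 for FL, a difference of 0.849 (SD, n = 2 each, two-sided exact permutation p = 0.333, the smallest that 2 against 2 allows). The median rank was at 0.827% and 0.727% of the list for del-cIDR and at 5.58% and 2.70% for FL, a difference of -3.36 percentage points (two-sided exact permutation p = 0.333, n = 2 each). Both medians compare partly different genes. Peaks of mt-Nd2 entered them only in del-cIDR, and the mt-Nd1 peak only in FL replicate 2. In FL replicate 1, mt-Nd5 counted as 2 peaks. The 0.727% of del-cIDR replicate 2 was the rank of its 3' mt-Nd2 peak. When peaks under 2-fold were dropped the differences were -0.0705 in fold and 0.568 percentage points in rank, both of opposite sign. That limit acts on fold itself and removed the FL peaks of mt-Nd4l, mt-Nd4 and mt-Nd5 and a del-cIDR peak of mt-Nd2, so these values compare different genes as well. With peaks of a library within 100 bp joined, the fold difference was 0.422. Single FL libraries also moved them, as the fold difference was 0.383 without FL replicate 1 and 1.31 without FL replicate 2, and the rank difference -1.92 without FL replicate 1. The median peak width was 1012 and 305 bp for del-cIDR and 1024 and 918.5 bp for FL (two-sided exact permutation p = 0.667, n = 2 each). Widths follow from the same peak borders that chose the members, and fold and rank exist only where a peak was called. The p-values for fold, rank and width are thus descriptions only. The width difference was -312.75 bp, against 40.75 bp without del-cIDR replicate 2 and -939.5 bp with neighbouring peaks joined. Joining fused the mt-Nd4l to mt-Nd4 peak with the mt-Nd5 peak in the del-cIDR lists only. That left the narrow mt-Nd2 and mt-Nd6 peaks to set the del-cIDR medians, so the value does not show narrower del-cIDR peaks.

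The summit is the position of highest signal in a peak, where its fold enrichment is given. Of the 17 summits, 7 lay outside the complex I genes, 5 of 9 in del-cIDR and 2 of 8 in FL libraries. At mt-Nd5 the summit of the peak over the start of the gene fell 21 and 20 bases before the gene in del-cIDR replicates 1 and 2, and 18 and 27 bases before it in FL replicates 1 and 2. This stretch holds the tRNA genes TrnH, TrnS2 and TrnL2. The 3' peak of mt-Nd2 had its summit 48 and 49 bases beyond the gene in the del-cIDR replicates, and the 5' peak of del-cIDR replicate 2 had it 14 bases before the gene. In the mt-Nd4l to mt-Nd4 peak the summit stood inside mt-Nd4l, 46 and 45 bases before the start of mt-Nd4 for del-cIDR and 40 and 92 bases before it for FL. The mt-Nd6 summits lay inside the gene, 230 and 236 bases from its upper end for del-cIDR and 227 and 182 bases for FL. The mt-Nd1 summit of FL replicate 2 lay 32 bases inside that gene. If a summit inside the gene was asked for, mt-Nd2 had no peak in any library and mt-Nd5 had one in FL replicate 1 alone.

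**Figure D4:**
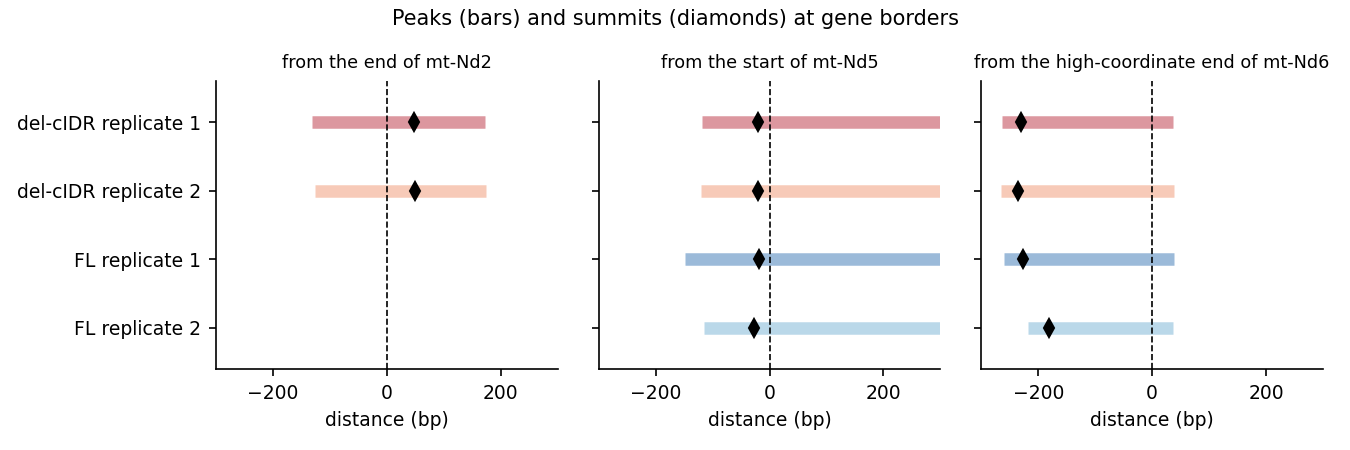
Peaks (bars, drawn to 300 bp at most) and summits (diamonds) by library, as distance in bp from the end of mt-Nd2, the start of mt-Nd5 and the upper end of mt-Nd6 (dashed lines). Summits lie 48 and 49 bp beyond mt-Nd2 in del-cIDR, 18 to 27 bp before mt-Nd5 in all 4 libraries, and inside mt-Nd6.

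The covered bases of these genes were shared across genotypes to an extent that overlapped that between replicates. Within the 7 genes the Jaccard index, the bases covered in both libraries over those covered in either, was 0.768 to 0.920 for the 4 pairs of a del-cIDR with an FL library. It was 0.858 between the del-cIDR replicates and 0.933 between the FL replicates. Over whole lists the corresponding values were 0.0606 to 0.0730 across genotypes, 0.404 for del-cIDR and 0.461 for FL. Since members were picked where peaks were known to lie, this contrast is a description. Base by base, 52.1% of the gene bases were covered in all 4 libraries and 30.6% in none. Both del-cIDR libraries and neither FL library covered 3.52%, and both FL libraries and neither del-cIDR library 0.158%.

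The long peaks of mt-Nd4l to mt-Nd4 and mt-Nd5 stood out more by width in the del-cIDR lists. Peaks of 1500 bp or wider numbered 75 and 99 in the del-cIDR lists, 0.427% and 0.525% of their peaks, against 1239 and 552 in the FL lists, 6.23% and 3.32% of theirs. Each of the 4 lists had 2 such peaks at complex I genes. In FL replicate 1 the narrower of these, 1 of its pair of mt-Nd5 peaks, only just reached the limit at 1504 bp. By width the mt-Nd4l to mt-Nd4 peak ranked 36 and 55 in the del-cIDR lists and 1175 and 515 in the FL lists. The limit of 1500 bp was set after the lists were seen.

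Outside the complex I genes, the stretches of chromosome MT between them were covered unevenly. The complex I genes made up 66.4% and 74.3% of the covered bases of the chromosome in del-cIDR and 71.4% and 68.1% in FL, a share whose genotypes overlapped. The stretch between mt-Nd4 and mt-Nd5, with its 3 tRNA genes, was covered to 66.5% and 67.5% in del-cIDR and 75.6% and 58.4% in FL. It was the stretch nearest in covered share to mt-Nd4l, mt-Nd4, mt-Nd5 and mt-Nd6, with a summed difference over the 4 libraries of 26.6 percentage points for mt-Nd6 and 115 to 132 for the others. The next nearest to these 4 genes was the stretch of the ribosomal RNAs before mt-Nd1, at 75.0 percentage points or more. The stretch nearest to mt-Nd2 was the one before it, with TrnI, TrnQ and TrnM (32.7 percentage points), where 37 bases were covered in del-cIDR replicate 2 and none in any other library. The next was the long stretch after it (43.0 percentage points), and the same stretches were nearest to mt-Nd1 in the opposite order (22.3 and 32.6 percentage points). The tRNA gene TrnR before mt-Nd4l lies in a stretch covered to 54.3% and 52.9% in del-cIDR and 0% and 5.71% in FL. The ribosomal RNA stretch held the best ranked mitochondrial peak of each list, at ranks 8 and 11 in del-cIDR and rank 1 in both FL lists.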

How the data were processed

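Peak lists of the 4 ALKBH5 immunoprecipitates were analysed, 1 list per replicate. The submitters' processing notes name MACS2, UMI-tools, STAR and cutadapt and the build GRCm39. Their versions and settings, and any control for peak calling, are not given in these sources. The authors deposited for each peak a fold enrichment at the summit (a ratio over the peak caller's background) and a −log10 q. The lowest deposited −log10 q was 1.31 to 1.34. Lists named wt were taken as FL and those named KI as del-cIDR, the only other genotype. Read depth is unknown.

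Peaks were kept as deposited. Positions are 1-based. Gene intervals are those of the selection rule, and all 7 were matched by symbol to the RefSeq name table of GRCm38.p6, which otherwise gave only names, gene order and lengths. Ranks are by −log10 q within a list. Named items were all 7 members, the stretches between them and, per member with a peak, the 2 stretches nearest in covered share (smallest sum of absolute differences). Means were compared by two-sided exact permutation tests over libraries. Peak numbers and covered bases chose the members, so their p is not given. The interval functions were tested on simulated data. Alternatives were stricter q and fold limits, equal lists (16636 peaks), other overlap rules, joining of peaks within 100 bp, left-out replicates and a replicate block, and dividing fold by the list's median was added later. Members and lists were chosen with earlier results of these data known. Python 3.11.15, pandas 2.3.3, numpy 2.4.6 and scipy 1.17.1 were used.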

Additional observations from a re-analysis of the deposited data

How the results depend on the processing

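Of 68 alternatives for the 6 differences between genotypes, del-cIDR minus FL, 51 kept the direction, and no p can pass a threshold with 2 libraries each. Some of the 51 could hardly have done otherwise. A replicate block cannot change a difference of means here, and the stricter q limit and the equal lists removed no complex I peak. The count is therefore no measure of how stable the differences are. Requiring 50% of the peak inside a gene turned the difference in peak number from 0.5 to -0.5, in covered bases from 130 to -0.5, in median width from -312.75 to 379.75 bp and in the share of covered mitochondrial bases from 0.564 to -1.79 percentage points. Requiring the summit inside a gene gave -1 peak, -701.5 bases, 130.25 bp and -14.3 percentage points, and left 3 genes with a peak in both del-cIDR lists in place of 5, since the mt-Nd2 and most mt-Nd5 summits lie outside those genes. Joining peaks within 100 bp gave 0 for peak number, -0.324 percentage points for the share, -939.5 bp in width and 0.422 in fold. It fused the mt-Nd4l to mt-Nd4 and mt-Nd5 peaks in the del-cIDR lists only, so it compares unlike peaks. Keeping only peaks of at least 2-fold enrichment gave 723.75 bp in width, 0.568 percentage points in rank and -0.0705 in fold, and moved peak number to 2.5, covered bases to 3459.5 and the share to 55.5 percentage points. It removed FL peaks for their low fold, so it compares different genes, and left 1 gene, mt-Nd6, with a peak in both FL lists in place of 4. Ranking by fold in place of −log10 q moved the rank difference to -34.1 percentage points, and fold divided by the list's median, an alternative chosen after seeing the data, gave 0.369. With replicates left out in turn, the difference ranged from 0 to 1 in peak number, from -666.25 to 40.75 bp in width and from -3.37 to 4.50 percentage points in share. The labels share replicate numbers but do not say whether same-numbered libraries were prepared together. Their deviations in summit number over 2267 windows of 1 Mb had r = -0.00819, a value that cannot decide this. With a replicate block the fold difference stayed at 0.849 (two-sided exact permutation p = 0.5 over 2 pairs, the smallest possible), and the other differences were likewise the same.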

Other observations

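Chromosome 1 held a run of peaks between 24651931 and 24655241 (GRCm39) that was looked up after the lists were seen. The reason was that the name table places on this chromosome a pseudogene with the synonym mt-Atp6. It also places there Gm10222, which is as long as mt-Nd4l but has no mitochondrial synonym. The run of peaks numbered 4 and 3 in del-cIDR replicates 1 and 2 and 2 in each FL replicate. Its best peak, from 24654433 to 24655241 in del-cIDR replicate 1, ranked 34 with 5.79-fold enrichment, and the best peaks of del-cIDR replicate 2, FL replicate 1 and FL replicate 2 ranked 77, 258 and 84. A peak from 24652389 to 24653450 in del-cIDR replicate 1 had its counterpart from 24652387 to 24653432 and from 24652373 to 24653431 in the FL replicates. The counterpart in del-cIDR replicate 2 was longer, from 24652388 to 24653929. It also spanned a separate peak of del-cIDR replicate 1, from 24653619 to 24653929 at rank 109, where the FL lists had none. A peak at the low end of the run, from 24651936 to 24652236 and from 24651931 to 24652237, was listed in the del-cIDR replicates only, at 1.23-fold and 1.32-fold enrichment. Whether this run lies on the nuclear copy of mitochondrial DNA, and whether it took reads from mt-Nd3 or its neighbours, was not tested.

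A peak beyond mt-Nd6, in the stretch with the cytochrome b gene and its neighbouring tRNA genes, was listed from 15088 to 15387 and from 15083 to 15388 in the del-cIDR replicates, with a summit at 15372 in both. Its enrichment was 1.26-fold and 2.40-fold. The FL lists had no peak there, and FL replicate 2 had one from 14610 to 14888.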
